A study of Mus musculus with 6 samples.

Results

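Described here are 10 genes of the IL-10 and TGF-β pathways in mouse peritoneal cells, out of 55538 features counted by single-cell RNA-seq (scRNA-seq). They are the cytokine gene *Il10*, its receptor chains *Il10ra* and *Il10rb*, the feedback inhibitor *Socs3*, the ligand gene *Tgfb1*, the receptor genes *Tgfbr1* and *Tgfbr2*, the inhibitors *Smad7* and *Skil*, and the matrix gene *Tgfbi*. They were taken as a named list of pathway genes. All 10 had UMIs (unique molecular identifiers, each standing for a captured transcript) in B cells, T/NK cells and macrophages.

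Resident peritoneal cells of mice of the C57BL/6 strain (C57BL/6J in the study's methods) were collected by lavage, left to adhere, and washed. The 6 groups were MerTK +/+ and MerTK -/- (MerKD) cells, each as a control with a change of medium only and after 2 h or 6 h with apoptotic human Jurkat T cells killed by UV. MerTK is a receptor through which macrophages take up dying cells, and MerKD mice carry a mutation of its gene in every cell type. Each group was 1 library made from the pooled cells of 3 mice, so no animal can be told from another and no group has a replicate. The cell barcodes end in a library number from 1 to 6, which no label ties to a genotype or time. No genotype or time comparison was therefore made, levels of *Mertk* were not used to assign one, and values are given over all libraries and by library number.

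IL-10 is a cytokine that restrains inflammation. It binds a surface complex of the ligand-binding chain IL-10RA and the shared chain IL-10RB, which act through JAK1, TYK2 and STAT3, and *Socs3* is among the genes that STAT3 induces. B-1 cells, a B cell type common in the peritoneal cavity, and macrophages are both known producers. TGF-β1 is secreted in a latent form and, once released, binds TGFBR2, which phosphorylates TGFBR1. That kinase activates SMAD2 and SMAD3, while SMAD7 blocks the receptor, SKIL (SnoN) represses SMAD targets, and TGFBI is a secreted matrix protein named for its induction by TGF-β.

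The gates were sums of UMIs per cell. B cells had at least 4 UMIs of *Cd79a* and *Cd79b*, T/NK cells at least 2 of *Cd3d*, *Cd3e* and *Nkg7*, and macrophages at least 2 of *Csf1r*, *Adgre1* and *Fcer1g* with at most 2 and 1 of the other gates' genes. Of 7665 cells kept, 2948 (38.5%) were B cells, 514 (6.71%) T/NK cells and 2773 (36.2%) macrophages, although the labels call all the cells peritoneal macrophages. Another 153 cells passed both lymphocyte gates and were left out, and 1277 passed none. B cells were split into 308 with at least 2 UMIs of *Egr3* and *Egr4* (Egr-high), genes switched on early after antigen receptor signalling, 223 with 1 UMI, and 2417 with none (Egr-0). Macrophages were split into 635 with *Gata6* only, the factor of large peritoneal macrophages, 255 with *Irf4* only, a factor of small peritoneal macrophages, 22 with both and 1861 with neither.

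Markers outside the gates followed the names. The 7 B cell markers summed to 2841 CPM (UMIs per 1000000 UMIs of the class) in B cells and 23.2 CPM in macrophages, and the 8 T cell markers to 1709 CPM in T/NK cells and 51.1 CPM in B cells. NK cell markers summed to only 129.8 CPM in T/NK cells, of which 405 had *Cd3d* or *Cd3e* and no *Nkg7* and 15 had *Nkg7* alone. The 9 large macrophage markers summed to 16609 CPM in Gata6 and 2769 CPM in Irf4 macrophages, and the 8 small macrophage markers to 1564 and 11456 CPM. Irf4 macrophages also carried more of the 6 dendritic cell markers (56.7 against 8.67 CPM) and of the 7 B cell markers (100.1 against 7.88 CPM). The 7 macrophage markers summed to 22083 CPM in macrophages, 696 CPM in B cells (188 to 957 CPM over libraries) and 2680 CPM in T/NK cells (66.6 to 5818 CPM), and their part in the lymphocyte values below was not tested. Libraries held 4234786 to 10287079 UMIs. Median depth was 5416 UMIs in B cells, 8230.5 in Egr-high and 5015 in Egr-0 B cells, and 2813.5 in T/NK cells. It was 4426 in macrophages, with 5519 in Gata6 cells, 4038 in Irf4 cells and 4139 in those with neither factor. The part of depth in the macrophage split was not tested. Library numbers 5 and 6 gave only 40 and 18 T/NK cells. Libraries shared 25 barcode sequences, which 50 cells (0.652%) carry.

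In the GRCm38 assembly with GENCODE vM21, *Il10* lies at chr1:131019845-131024974 on the forward strand, *Il10ra* at chr9:45253837-45269149 and *Tgfbr2* at chr9:116084293-116175360 on the reverse strand, *Tgfb1* at chr7:25687002-25705077 and *Tgfbi* at chr13:56609523-56639562 on the forward strand, and *Socs3* at chr11:117966079-117970047 on the reverse strand. All are protein-coding. RefSeq promoter windows of GRCm38.p6, from 250 bases before to 50 bases after a start site, were found for 5 of the 10 genes (*Socs3*, *Tgfb1*, *Tgfbi*, *Tgfbr1* and *Tgfbr2*), with 6 windows in all. *Il10*, *Il10ra*, *Il10rb*, *Smad7* and *Skil* had no window. Below are 2 windows, that of *Socs3* (chr11:117969317-117969616, reverse strand) because the gene is a target of STAT3, and that of *Tgfb1* (chr7:25686752-25687051, forward strand) because B cells were split on EGR genes. The *Socs3* window lies wholly within the GENCODE bounds of the gene, whose upstream end is at 117970047. Its RefSeq start site is therefore downstream of that end. Capitals mark the STAT-type match in *Socs3* and the EGR match, read on the other strand, in *Tgfb1*.
Socs3 promoter: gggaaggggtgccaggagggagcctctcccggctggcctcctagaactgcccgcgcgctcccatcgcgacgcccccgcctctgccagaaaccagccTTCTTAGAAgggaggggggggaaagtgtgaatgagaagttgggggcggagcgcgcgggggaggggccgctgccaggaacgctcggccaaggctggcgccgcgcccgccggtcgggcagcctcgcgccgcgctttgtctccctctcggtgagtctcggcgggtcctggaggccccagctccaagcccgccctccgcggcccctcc
Tgfb1 promoter: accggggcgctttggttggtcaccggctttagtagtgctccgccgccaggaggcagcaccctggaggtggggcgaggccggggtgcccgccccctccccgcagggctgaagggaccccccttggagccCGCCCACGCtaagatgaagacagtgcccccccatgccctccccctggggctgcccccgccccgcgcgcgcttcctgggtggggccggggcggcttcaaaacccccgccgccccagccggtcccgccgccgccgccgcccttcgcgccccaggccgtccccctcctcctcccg

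The STAT-type letters TTCNNNGAA start 154 bases before the RefSeq *Socs3* start site of this window and stand in 8.30% of all 32851 windows. The EGR letters GCGTGGGCG start 122 bases before that of *Tgfb1* and stand in 0.612% of windows. Both strands were searched with 16 motifs, some of which overlap. The wider EGR form GNGTGGGNG (14.3% of windows) was in *Tgfb1* and *Tgfbr2*, the SMAD letters CAGACA (21.0%) and the MARE letters TGCTGA (19.5%) were in *Tgfbr1*, and the NF-κB letters GGGNNTNCC (16.4%) and SP/KLF letters GGGGCGGGG (11.4%) were in *Tgfb1*. TTCCNGGAA (1.15%), GTCTAGAC (0.213%), TGACGTCA (1.79%), TGACGT (7.51%), TGANTCA (7.81%), CCACACCC (3.56%), CCGGAAGT (3.89%), GAGGAAGT (3.20%) and the full MARE (0.00609%) matched none of the 6 windows. A match describes these letters only.

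Classes were compared by the ratio of their summed CPM, with an exact conditional 95% interval for counting error. A gene was called where the ratio was at least 2-fold, its interval excluded 1 and its direction was the same in each of the 6 libraries, among features with a mean of at least 5 CPM. No p-value is given, since cells are not replicates and the libraries are not tied to conditions. Of the 10 genes, 3 were called higher in macrophages than in B cells (*Il10rb*, *Tgfbi*, *Socs3*), where 18.7% of 9385 features were, and 2 lower (*Il10*, *Tgfbr2*), where 22.1% were. Relative to T/NK cells, 4 of the 9 tested were higher in macrophages (*Il10ra*, *Il10rb*, *Tgfb1*, *Tgfbi*) and 2 lower (*Tgfbr2*, *Smad7*), beside 17.3% and 14.3% of 9632 features, and *Il10* was too low in both to be tested. In B cells over T/NK cells, 1 was higher (*Il10*) and 2 lower (*Smad7*, *Socs3*), beside 6.8% and 5.8% of 9695 features. In Egr-high over Egr-0 B cells, 1 of 9 tested was higher (*Il10*) and 2 lower (*Il10ra*, *Socs3*), beside 1.93% and 3.82% of 9134 features, with *Tgfbi* too low. In Irf4 over Gata6 macrophages, 1 was higher (*Tgfbi*) and 1 lower (*Socs3*), beside 5.38% and 4.03% of 8818 features. With so few members, these counts describe the list and are not evidence that it stands apart.

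The scale affects both comparisons with macrophages. With immunoglobulin, ribosomal protein and mitochondrial genes left out of the UMI total, the median log2 ratio of all features moved from -0.15 to -0.71 in macrophages over B cells, with 12.5% higher and 38.5% lower. It moved from -0.15 to -0.68 in macrophages over T/NK cells, with 11.0% higher and 19.9% lower. The calls of *Il10rb* and *Socs3* over B cells, and of *Il10ra* and *Il10rb* over T/NK cells, were lost on that scale, with ratios between 0.62 and 0.91 on the log2 scale.

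**Figure D1:**
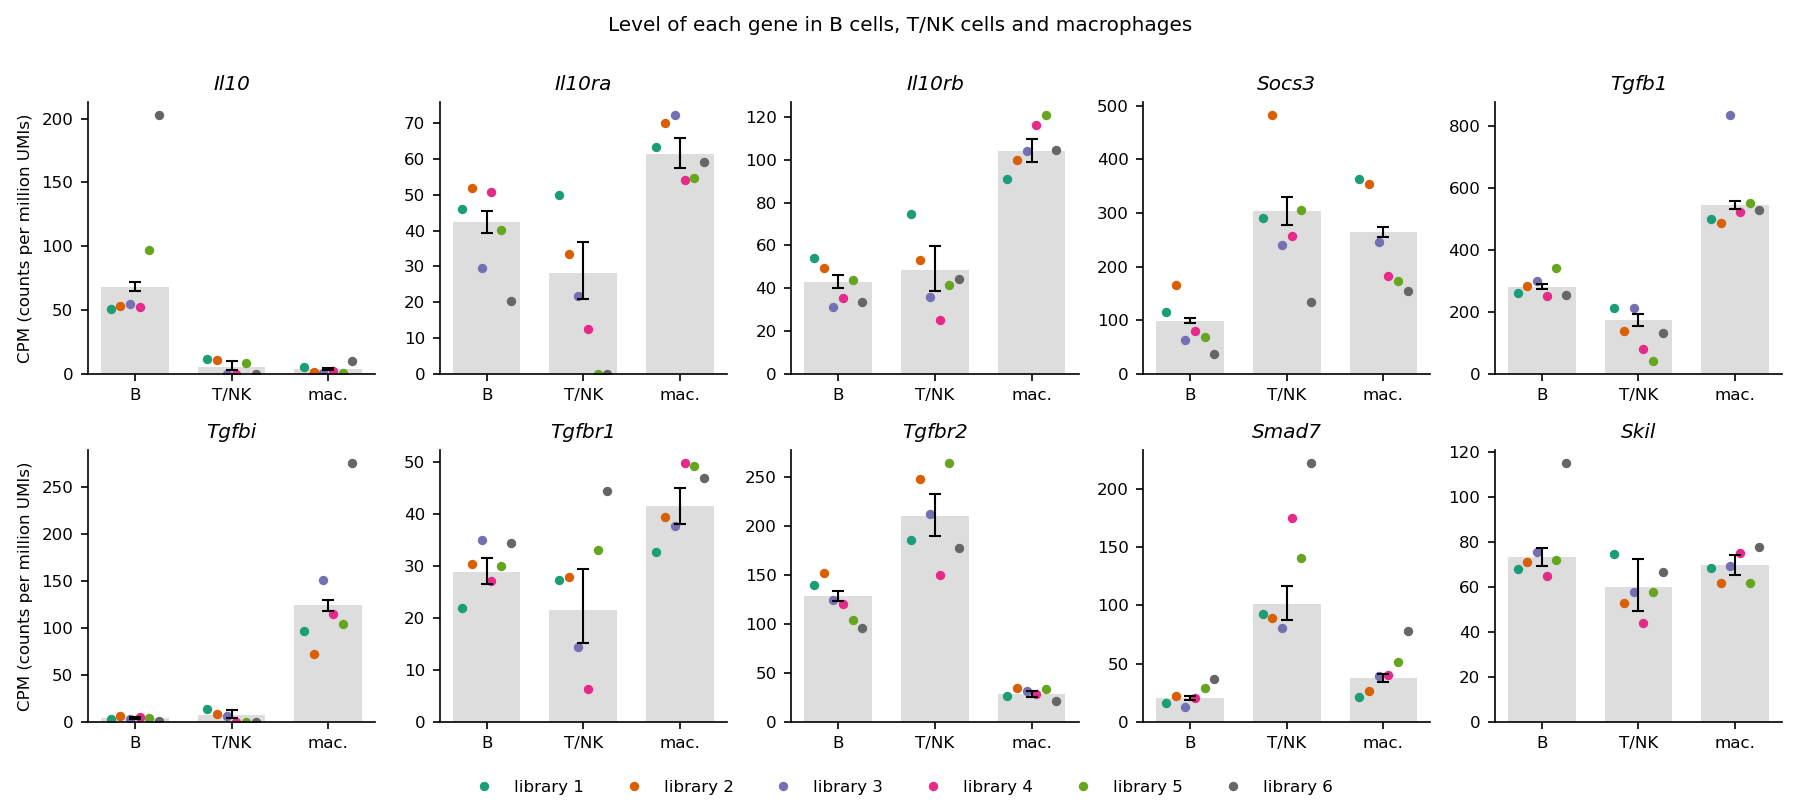
CPM of each gene (y axis, from 0, its own scale in each panel) in B cells, T/NK cells and macrophages (mac.). Bars are the pooled level with its exact Poisson 95% interval and points are the 6 library numbers. *Il10* stands high in B cells and *Tgfbi* in macrophages, and *Tgfbr2* is lowest in macrophages, at 28.6 CPM against 129 and 210.1 CPM.

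*Il10* was a B cell transcript here. B cells held 1261 of its 1790 UMIs (70.4%), cells of no gate 393 (22.0%), macrophages 51 (2.85%) and T/NK cells 10 (0.559%). By library number, from 1 to 6, its level in B cells was 50.8, 52.9, 55.0, 52.2, 97.1 and 203 CPM. Library number 6 was the highest and number 5 next, and the other 4 lay within 5 CPM of each other. In macrophages the same libraries gave 5.06, 1.67, 0.723, 2.35, 0.770 and 10.3 CPM, from 22, 3, 1, 8, 1 and 16 UMIs, so no library overlapped between both classes. Pooled, B cells had 68.2 CPM (95% interval 64.5 to 72.1) and macrophages 3.70 CPM (2.76 to 4.87), a log2 ratio of -4.20 (-4.64 to -3.80), or 18.4-fold. T/NK cells had 5.50 CPM (2.64 to 10.1), 12.4-fold below B cells, with no UMI in library numbers 3, 4 and 6. That log2 ratio of 3.63 kept its call in all 17 alternatives but not its size. It was 1.42 with the cells of both lymphocyte gates kept, 5.42 among cells of 3000 to 8000 UMIs, 4.35 without library number 1 and 3.01 without number 3.

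Only some B cells carried the transcript. It was seen in 13.5% of B cells (12.3 to 14.8%), 1.56% of T/NK cells and 1.05% of macrophages. With each cell thinned to 1500 UMIs, the shares were 5.74% (4.92 to 6.65%), 0 of 498 T/NK cells (exact binomial upper limit 0.738%) and 0.520% (0.285 to 0.872%). The 30 B cells with most *Il10* UMIs, 1% of the class, held 34.0% of them, and 1 cell had 35 UMIs. That is a more uneven spread than the 9.26% for *Tgfb1* and 7.27% for *Tgfbr2* in the same cells. The macrophage level was 5.43% of that in B cells (4.02 to 7.18%), while the 7 B cell markers stood in macrophages at 0.332% to 1.29% of their B cell level, with a median of 0.633%. The macrophage gate left out cells with more than 2 UMIs of *Cd79a* and *Cd79b*, so these marker values may be partly set by the gate. The comparison therefore does not tell the source of the macrophage UMIs. In T/NK cells the *Il10* level was 8.06% of that in B cells (3.86 to 14.9%), within the 1.78% to 11.1% of the B cell markers, and the source of these UMIs was not tested. Among macrophages, 4 UMIs were in Gata6 cells (1.05 CPM) and 12 in Irf4 cells (10.0 CPM), a log2 ratio of 3.25 (1.53 to 5.34) that was not called because the libraries did not share its direction.

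Within B cells *Il10* followed the EGR split in every library. Egr-0 cells had 19.7, 14.8, 48.1, 27.0, 41.6 and 126 CPM in library numbers 1 to 6, and Egr-high cells 213, 312, 97.9, 236, 298 and 381 CPM. Each library was higher in its Egr-high cells, by 1.02 on the log2 scale in number 3 and by 4.40 in number 2, though the Egr-0 cells of number 6 lay above the Egr-high cells of number 3. Pooled levels were 226 CPM (208 to 244) and 33.1 CPM (30.1 to 36.2), a log2 ratio of 2.77 (2.59 to 2.95), or 6.82-fold. Egr-high cells were 308 of 2948 B cells and held 622 of their 1261 *Il10* UMIs.

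The level also differed by step of *Egr3* and *Egr4* UMIs. Cells with 0, 1, 2 to 3, 4 to 7 and 8 or more UMIs had 33.1, 94.6, 184, 213 and 305 CPM of *Il10*, from 2417, 223, 138, 86 and 84 cells. The Poisson intervals of the steps at 2 to 3 (161 to 210 CPM) and 4 to 7 (182 to 248 CPM) overlapped and those of the other neighbours did not. These intervals take each UMI as independent, though few cells held many of the *Il10* UMIs, so they are too narrow to separate the steps. Thinned to 1500 UMIs per cell, the share of cells with the transcript was 3.32%, 12.6%, 18.8%, 14.0% and 26.2%, against 8.36%, 29.6%, 42.8%, 43.0% and 40.5% without thinning. The exact binomial intervals of the thinned shares overlapped between neighbours from 1 UMI upward (8.51 to 17.6%, 12.7 to 26.4%, 7.42 to 23.1% and 17.2 to 36.9%). Only that at 0 UMIs (2.64 to 4.12%) lay apart. The steps also differed in their libraries. Library number 6 had the highest *Il10* level in both Egr-0 and Egr-high cells. It gave 189 of the 2417 cells with 0 UMIs, 48 of the 223 with 1 and 47 of the 308 Egr-high cells. The part of libraries in the pooled steps was not tested. Egr-high cells were also the deeper ones, with a median of 8230.5 against 5015 UMIs, and the part of depth in the difference was not tested. Among cells of 3000 to 8000 UMIs the log2 ratio was 3.34 (3.06 to 3.62) with all 6 libraries higher, and among cells of 5000 to 10000 UMIs, a range chosen after the data were seen, it was 2.39 (2.13 to 2.64) with 5 of 6 libraries higher, so the call was lost there on direction.

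**Figure D2:**
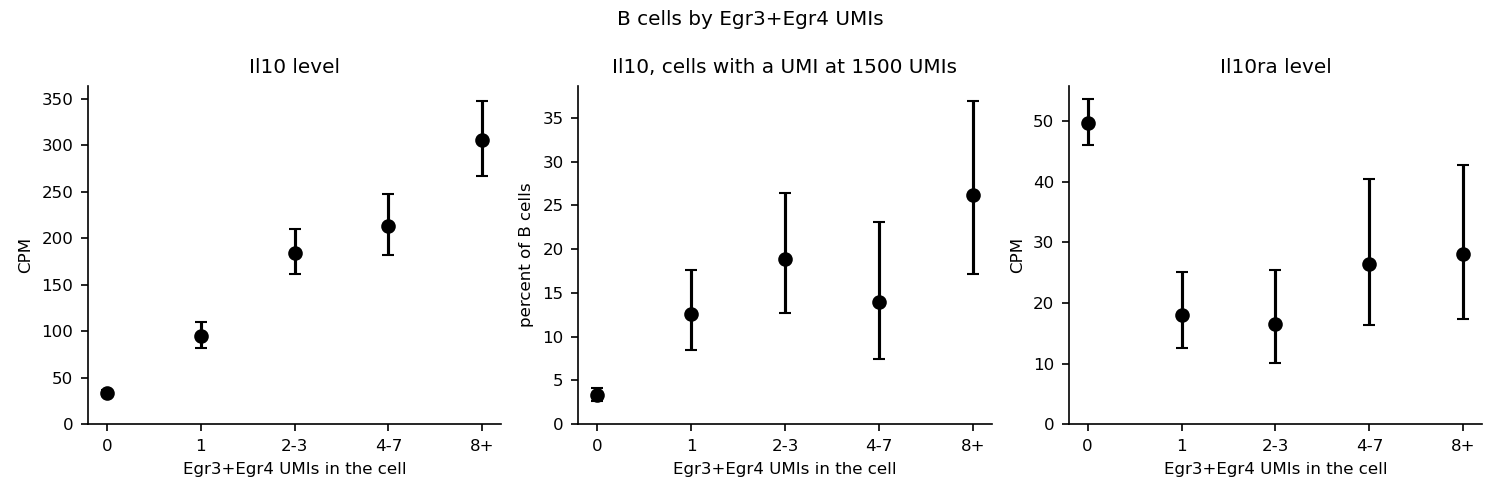
B cells grouped by their UMIs of *Egr3* and *Egr4* (x axis), with the CPM of *Il10*, the percent of cells with an *Il10* UMI after thinning to 1500 UMIs, and the CPM of *Il10ra* (y axes, from 0). Points are pooled over libraries with exact 95% intervals, and *Il10* goes from 33.1 to 305 CPM while *Il10ra* is highest, at 49.8 CPM, where no EGR UMI was seen. Libraries make up different shares of the cells in each step.

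*Il10ra*, the chain that binds the cytokine, had its highest level in macrophages in 6 of 6 libraries. Macrophages had 63.3, 70.04, 72.3, 54.2, 54.6 and 59.1 CPM in library numbers 1 to 6 and B cells 46.1, 51.8, 29.5, 50.9, 40.2 and 20.3 CPM, with no overlap between classes. The pooled log2 ratio was 0.54 (0.40 to 0.68), under the 2-fold limit, and came to 0.03 on the scale without immunoglobulin, ribosomal protein and mitochondrial genes. T/NK cells had 28.0 CPM (20.9 to 36.9), with 22, 12, 15, 2, 0 and 0 UMIs, and macrophages were higher by 1.13 on the log2 scale (0.73 to 1.57). Without library number 3 that call was lost, and with lymphocytes holding macrophage gate UMIs left out the ratio was 1.95.

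Egr-high B cells had less *Il10ra* than Egr-0 B cells in each library, opposite to *Il10*. Egr-0 cells had 51.3, 59.6, 37.5, 57.2, 46.6 and 22.6 CPM and Egr-high cells 24.4, 33.0, 16.3, 21.8, 25.8 and 15.0 CPM. The pooled levels were 49.8 CPM (46.1 to 53.7) and 22.5 CPM (17.2 to 28.8), a log2 ratio of -1.15 (-1.55 to -0.77). Thinned shares were 8.28% (7.20 to 9.46%) and 2.92% (1.34 to 5.47%). Cells with 1 EGR UMI already had 18.1 CPM (12.6 to 25.2), so the pooled level did not fall further with more EGR UMIs. Library number 6, with the lowest *Il10ra* in both classes, gave 48 of these 223 cells but only 189 of the 2417 Egr-0 cells. The part of libraries in this pooled step was not tested. Within 3000 to 8000 and within 5000 to 10000 UMIs 1 of 6 libraries went the other way, so the call was lost at pooled ratios of -1.22 and -1.26, and it was lost with a split at 4 EGR UMIs (-0.87).

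*Il10rb*, which also serves other receptors of the IL-10 family, had 90.9, 100.1, 104, 116, 121 and 105 CPM in macrophages and 53.9, 49.5, 31.1, 35.6, 43.9 and 33.6 CPM in B cells. Every macrophage value lay above every B cell value, and the pooled log2 ratio was 1.28 (1.15 to 1.40). T/NK cells had 48.4 CPM (38.8 to 59.6) and differed from B cells by -0.17 (-0.49 to 0.16) in B cells over T/NK cells. Within B cells and within macrophages it was not called, with log2 ratios of -0.39 (-0.71 to -0.08) for Egr-high over Egr-0 cells and -0.34 (-0.67 to -0.02) for Irf4 over Gata6 cells.

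*Socs3*, the feedback inhibitor of STAT3-activating receptors, was low in B cells. Library numbers 1 to 6 gave 114, 165, 63.1, 80.6, 69.4 and 37.6 CPM in B cells, 364, 355, 246, 183, 172 and 154 CPM in macrophages, and 290.2, 483, 239.5, 256, 305 and 133 CPM in T/NK cells. In each library B cells were lowest. The log2 ratio was 1.42 (1.34 to 1.50) for macrophages over B cells and -1.62 (-1.75 to -1.48) for B cells over T/NK cells. Macrophages and T/NK cells differed by -0.20 (-0.33 to -0.06), with 3 libraries in each direction. T cells with *Cd3d* or *Cd3e* and no *Nkg7* had 343 CPM (313 to 375), and 38.5% of them had a UMI after thinning.

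Both splits also separated *Socs3*. Gata6 macrophages had 364, 338, 361, 205, 154 and 169.5 CPM and Irf4 macrophages 155, 159, 99.3, 166, 62.3 and 74.3 CPM, lower in each library. Pooled, these were 290.1 CPM (273 to 308) and 112 CPM (93.6 to 132), a log2 ratio of -1.38 (-1.65 to -1.12). By library the ratio ran from -0.30 in number 4 to -1.86 in number 3. Library number 6 gave 113 of the 255 Irf4 cells but only 55 of the 635 Gata6 cells. Pooled values thus weigh the libraries differently in each class. Egr-0 B cells had 120.2, 186, 75.0, 89.2, 82.6 and 39.9 CPM and Egr-high B cells 83.0, 96.8, 36.4, 18.1, 37.3 and 33.6 CPM. That difference was -1.04 (-1.29 to -0.80), just past the 2-fold limit, and its call was lost in 6 of 19 alternatives. These were a minimum of 1000 genes per cell (-0.98), cells of both lymphocyte gates kept (-0.95), the mean of library CPM (-0.96), library number 2 left out (-0.99), number 3 left out (-0.94) and a split at 1 EGR UMI (-0.93).

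**Figure D3:**
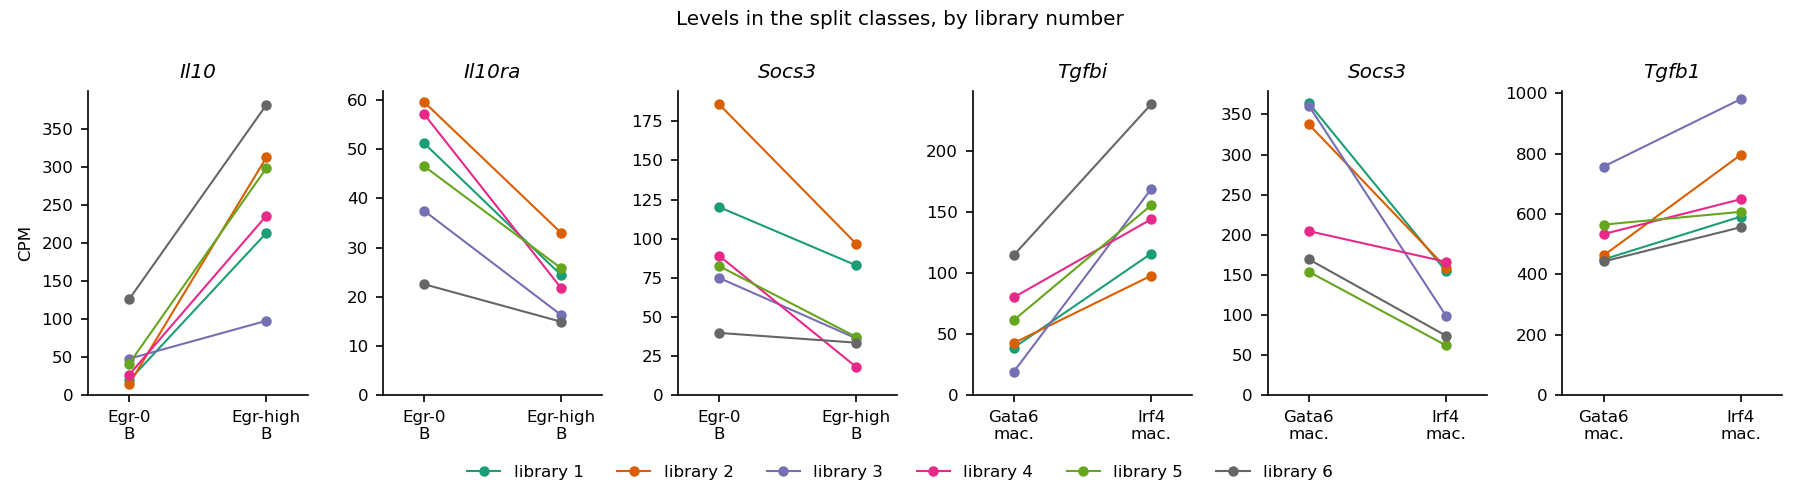
CPM (y axis, from 0) of genes in Egr-0 and Egr-high B cells and in Gata6 and Irf4 macrophages (mac.), with 1 line for each library number. *Il10* goes up and *Il10ra* and *Socs3* go down from Egr-0 to Egr-high cells in all 6 libraries, and from Gata6 to Irf4 macrophages *Tgfbi* and *Tgfb1* go up and *Socs3* goes down in all 6.

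*Tgfb1*, the ligand gene, was found in all classes. Macrophages had 500.3, 487, 835, 521, 551 and 527 CPM, B cells 262, 284, 299, 249.7, 343 and 253 CPM, and T/NK cells 213, 139.5, 212, 81.3, 41.2 and 133 CPM. Every macrophage value lay above every B cell value, and in each library B cells lay above T/NK cells. Pooled levels were 545 CPM (533 to 558), 280.4 CPM (273 to 288) and 173 CPM (155 to 193). The log2 ratio was 1.65 (1.49 to 1.82) for macrophages over T/NK cells. For macrophages over B cells it was 0.96 (0.91 to 1.01), just short of 2-fold, and for B cells over T/NK cells 0.69 (0.53 to 0.86). Without immunoglobulin, ribosomal protein and mitochondrial genes in the scale, macrophages over B cells was 0.45. With lymphocytes that held 2 or more macrophage gate UMIs left out, these became 2.60, 1.00 and 1.59, all called. After thinning, 51.6% of macrophages, 26.6% of B cells and 9.24% of T/NK cells had a UMI.

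The splits moved *Tgfb1* less than 2-fold. Egr-high over Egr-0 B cells was 0.52 (0.41 to 0.62) and Irf4 over Gata6 macrophages 0.48 (0.36 to 0.59), each with the same direction in 6 of 6 libraries. By library the macrophage ratio ran from 0.10 in number 5 to 0.78 in number 2. Irf4 macrophages had 701 CPM (655 to 750.3) and Gata6 macrophages 504 CPM (482 to 528). B cells with 1 EGR UMI had 412 CPM (384 to 442), above the 354 CPM (332 to 376) of Egr-high cells.

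*Tgfbi* was a macrophage transcript, with 1708 of its 1968 UMIs (86.8%) there. Library numbers 1 to 6 gave 96.5, 72.3, 150.4, 114, 104 and 275 CPM in macrophages, with number 6 the highest. B cells had 2.82, 6.55, 3.09, 5.55, 3.70 and 0.782 CPM and T/NK cells 6, 3 and 4 UMIs in numbers 1 to 3 and none in the others. The log2 ratio was 4.93 (4.60 to 5.29) over B cells and 4.12 (3.34 to 5.03) over T/NK cells. Its level in B cells was 3.27% of that in macrophages (2.56 to 4.12%), within the 1.62% to 11.2% of the 7 macrophage markers, and in T/NK cells 5.77% (3.06 to 9.89%) beside their 9.19% to 16.6%. The source of the lymphocyte UMIs was not tested. The ratio over B cells was 6.23 with lymphocytes holding macrophage gate UMIs left out, and that over T/NK cells 4.75 without library number 1, both still called. Only 26.1% of macrophages had a UMI (24.4 to 27.7%), and 14.1% after thinning.

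Irf4 macrophages held more *Tgfbi* than Gata6 macrophages. The Gata6 cells had 39.1, 42.9, 19.4, 80.3, 61.6 and 115 CPM and the Irf4 cells 116, 98.0, 169, 144, 156 and 238 CPM. Each library was higher in Irf4 cells, and only the Gata6 value of number 6 reached into the range of the Irf4 values. Pooled levels were 54.4 CPM (47.2 to 62.3) and 174 CPM (151 to 199.6), a log2 ratio of 1.68 (1.40 to 1.96). By library the ratio ran from 0.84 in number 4 to 3.12 in number 3, wider than that interval for counting error. Library number 6, with the highest level in both, gave 113 of the 255 Irf4 cells but only 55 of the 635 Gata6 cells. The pooled ratio therefore also holds differences between libraries. Macrophages with neither factor had 148 CPM (139.7 to 156) and held 1273 of the 1968 *Tgfbi* UMIs. Their large macrophage markers summed to 12090 CPM, nearer to the 16609 CPM of Gata6 cells than to the 2769 CPM of Irf4 cells. Their small macrophage markers summed to 3626 CPM, against 1564 CPM in Gata6 and 11456 CPM in Irf4 cells. High *Tgfbi* was thus not limited to the Irf4 cells. Between 5000 and 10000 UMIs, where Irf4 cells fell to 73 and some libraries had as few as 5 of a class, the pooled ratio was 1.31 (0.85 to 1.75) but the direction was shared by only 3 of 6 libraries.

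**Figure D4:**
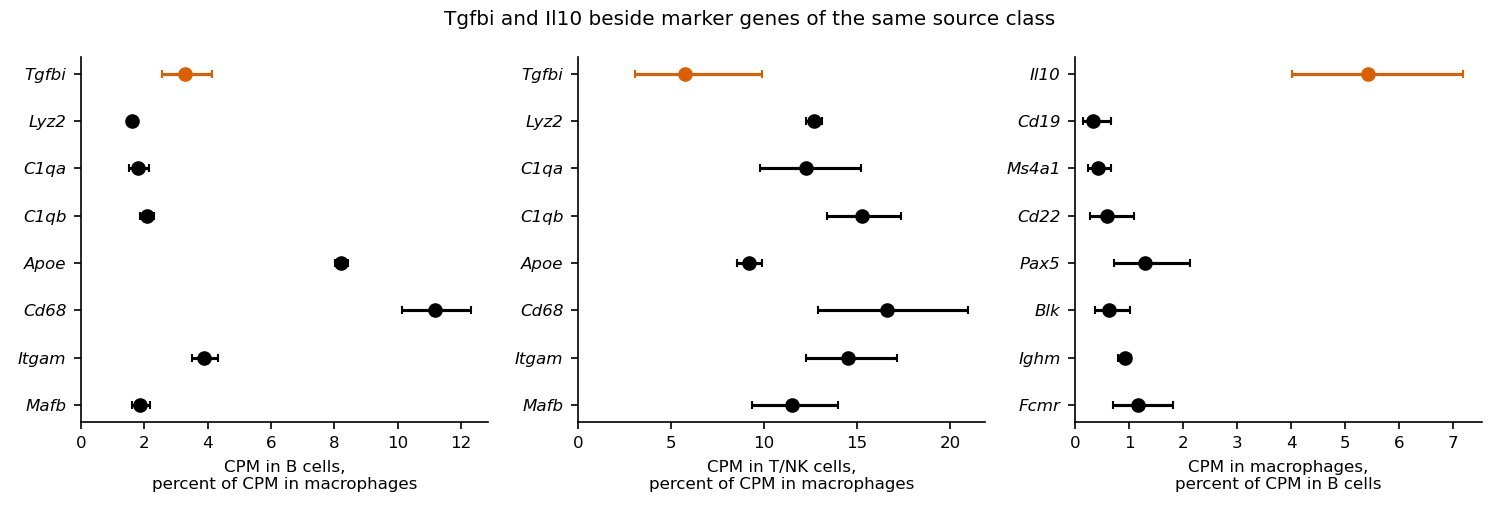
Level of *Tgfbi* (orange) and 7 macrophage markers in B cells and in T/NK cells as a percent of their macrophage CPM, and of *Il10* (orange) and 7 B cell markers in macrophages as a percent of their B cell CPM (x axes, from 0, with exact 95% intervals). *Tgfbi* lies within the markers' range in B cells and below it in T/NK cells, and *Il10* in macrophages, at 5.43%, lies above all 7 B cell markers. The macrophage gate limits *Cd79a* and *Cd79b*, which may itself lower the B cell markers there.

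*Tgfbr2*, the receptor that first binds TGF-β, had the opposite order to *Tgfb1*. T/NK cells had 186, 248, 212, 150.1, 264 and 178 CPM, B cells 139, 152, 125, 120.1, 104 and 95.5 CPM, and macrophages 26.5, 35.0, 31.1, 28.6, 33.1 and 21.2 CPM. In each library the order was T/NK cells, B cells, macrophages, with all macrophage values below all lymphocyte values. Macrophages were lower than B cells by a log2 ratio of -2.17 (-2.33 to -2.02) and lower than T/NK cells by -2.88 (-3.08 to -2.67). B cells over T/NK cells was -0.71 (-0.86 to -0.55), under 2-fold. The macrophage level was 22.2% of that in B cells, above the 0.332% to 1.29% of B cell markers there, which the macrophage gate may partly set. A UMI was seen in 30.3% of T/NK cells, 17.6% of B cells and 3.79% of macrophages after thinning. Neither split was called, with -0.19 (-0.36 to -0.02) for Egr-high over Egr-0 cells and -0.35 (-0.99 to 0.25) for Irf4 over Gata6 cells.

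*Tgfbr1*, the signalling kinase, was flat beside its partner. Macrophages had 32.7 to 49.7 CPM over libraries (median 43.2), B cells 21.9 to 35.1 CPM (median 30.2) and T/NK cells 6.25 to 44.4 CPM (median 27.6), the latter from only 39 UMIs. Pooled ratios were 0.52 (0.35 to 0.69) for macrophages over B cells, 0.95 (0.48 to 1.46) over T/NK cells and 0.43 (-0.04 to 0.94) for B cells over T/NK cells. The ratio over T/NK cells passed 2-fold, in each case as a call, without library number 1, without number 2, and with lymphocytes holding macrophage gate UMIs left out (1.26). Neither split was called. With at least 2 UMIs of *Gata6* or *Irf4* asked for, however, *Tgfbr1* was called lower in Irf4 than in Gata6 macrophages (-1.12).

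*Smad7*, the inhibitory SMAD that TGF-β signalling itself induces, was highest in T/NK cells, which also had most *Tgfbr2*. T/NK cells had 93.0, 89.3, 80.8, 175, 140.2 and 222 CPM, from 41, 32, 56, 28, 17 and 10 UMIs. Macrophages had 21.4, 26.7, 39.1, 40.3, 51.6 and 77.7 CPM and B cells 16.3, 22.3, 12.9, 20.2, 28.7 and 36.8 CPM. In each library the order was T/NK cells, macrophages, B cells, and every T/NK value lay above all others. The log2 ratio was -2.31 (-2.57 to -2.05) for B cells over T/NK cells and -1.42 (-1.67 to -1.17) for macrophages over T/NK cells. Macrophages over B cells was 0.89 (0.69 to 1.08), and this passed the limit without library number 1. In all 3 classes the highest value was in library number 6. With the cells of both lymphocyte gates kept, macrophages over T/NK cells was -0.89 and that call was lost. B cells over T/NK cells was then -1.70 and still called.

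*Skil*, the corepressor, differed least. B cells had 64.9 to 115 CPM over libraries (median 71.6), macrophages 61.6 to 77.7 CPM (median 68.9) and T/NK cells 43.8 to 74.8 CPM (median 57.7). Pooled ratios were -0.07 (-0.19 to 0.05) for macrophages over B cells, 0.22 (-0.07 to 0.52) for macrophages over T/NK cells and 0.29 (0.01 to 0.59) for B cells over T/NK cells. Differences of 2-fold lie outside all 3 intervals, and the first ratio was -0.58 without immunoglobulin, ribosomal protein and mitochondrial genes in the scale. In Egr-high over Egr-0 B cells it was 0.49 (0.29 to 0.69), with 5 of 6 libraries higher, and cells with 8 or more EGR UMIs had 131 CPM (106 to 159).

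**Figure D5:**
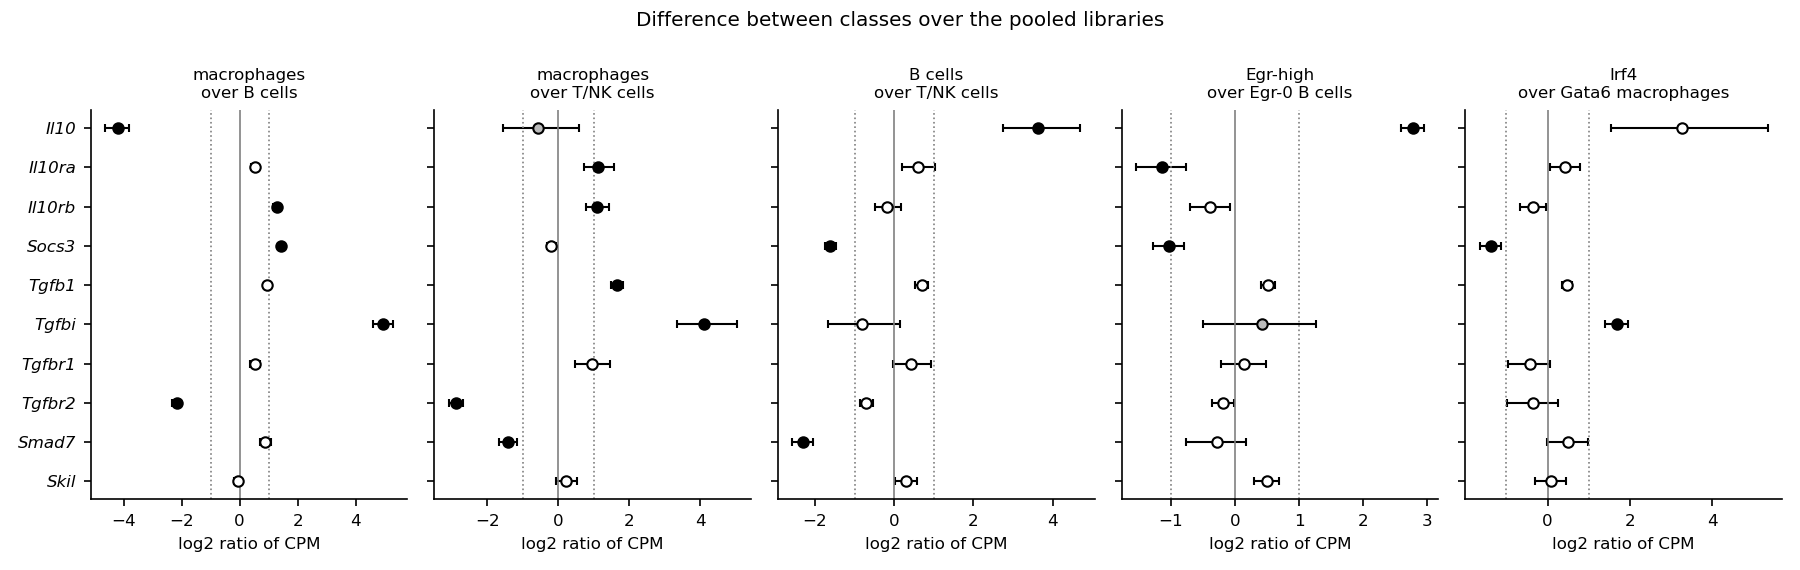
Log2 ratio of pooled CPM (x axis) for the 10 genes in each of the 5 comparisons, with exact 95% intervals for counting error. Filled points were called, open points were not, grey points were too low to be tested, and dotted lines mark 2-fold. *Il10* and *Tgfbi* lie farthest out, at -4.20 and 4.93 in macrophages over B cells.

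Other genes of both pathways were taken from 9 lists chosen with earlier results of these data known, some of which share genes and hold members. The median log2 ratio of all features tested was -0.15 in macrophages over B cells and over T/NK cells, -0.06 in Egr-high over Egr-0 B cells and in B cells over T/NK cells, and 0.10 in Irf4 over Gata6 macrophages. In macrophages over B cells, 8 of 10 tested genes of TGF-β ligands and latency were higher and none lower, with a list median of 3.58, beside 18.7% of all features higher and 22.1% lower. On the scale without immunoglobulin, ribosomal protein and mitochondrial genes, where the median of all features was -0.71, 7 of these 10 were higher and 1 lower, with a list median of 3.07. *Ltbp1*, which encodes a protein that tethers latent TGF-β (136 against 1.84 CPM, log2 ratio 6.21), *Thbs1*, the gene of thrombospondin (10571 against 163 CPM, 6.02), and *Itgb8*, an integrin chain that frees TGF-β (33.4 against 0.703 CPM, 5.57), differed most. Of 7 TGF-β and BMP receptors 5 were higher, led by *Eng* (4.58), *Tgfbr3* (3.96) and *Bmpr2* (3.82), and only *Tgfbr2* was lower. Of 6 SMADs, *Smad1* (2.01) and *Smad4* (1.19) were higher and *Smad3*, which carries the TGF-β signal, was lower (14.9 against 63.8 CPM, -2.10). Among TGF-β target genes 7 of 13 were higher, 5 on the other scale, with *Fn1* (5.70) and *Tgfbi* (4.93) among them. Among SMAD corepressors and ubiquitin ligases *Smurf1* and *Ski* were higher and *Tgif2* lower of 10.

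Of 16 genes of IL-10 receptor signalling, 9 were higher in macrophages than in B cells and none lower, beside 18.7% and 22.1% of all features. The list median was 1.14, and *Hmox1* (5.52), *Il1rn* (4.44) and *Dusp1* (4.32) led. On the other scale 4 of the 16 were higher, with a median of 0.63, beside 12.5% of all features, and *Socs3* and *Il10rb* were no longer among them. The core kinases and factors *Jak1* (181 against 191 CPM), *Tyk2* (11.9 against 16.2 CPM) and *Stat3* (248 against 225 CPM) were not called. Of 8 SOCS genes 4 were higher (3 on the other scale) and *Socs1* lower. Of 12 factors known to act at *Il10*, 4 were higher and 3 lower in macrophages (3 and 4 on the other scale), with *Ets1* (-4.21), *Maf* (3.54) and *Nfil3* (3.01) farthest. *Maf*, a factor that drives *Il10* in macrophages and T cells, had 22.6 CPM in macrophages, 31.9 CPM in T/NK cells and 1.95 CPM in B cells, lowest where *Il10* was highest. Among other regulatory cytokines *Il12a* was higher in B cells (11.5 against 1.16 CPM), and *Il20*, *Il22* and *Il24* had no UMI in any class.

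In Egr-high over Egr-0 B cells the 11 tested factors of the *Il10* list had 3 higher, *Rel* (428 against 119 CPM, 1.85), *Bhlhe40* (1.48) and *Batf* (1.29), and 2 lower, *Prdm1* (-1.60), the factor of plasma cell differentiation, and *Ets1* (-1.10), beside 1.93% and 3.82% of all features. Signalling genes of the IL-10 receptor had none higher and 3 lower of 16, with *Il10ra* and *Socs3* among them. Of 12 TGF-β target genes 3 were higher, *Klf10* (1.99), *Bhlhe40* and *Tgif1* (1.37), and *Id3* was lower (-1.47). *Tgif2* (1.41) was higher beside *Tgif1* among the corepressors, *Cish* was higher among SOCS genes (1.10), and no gene of the lists of TGF-β and BMP receptors, SMADs, or TGF-β ligands and latency was called.

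In Irf4 over Gata6 macrophages the lists split in both directions, beside 5.38% of all features higher and 4.03% lower. *Socs2* (112 against 9.20 CPM, 3.60) and *Socs6* (2.35) were higher while *Socs3* was lower. *Il1rn* (2.17) and *Etv3* (1.98) were higher and *Bcl3* (-1.33) lower among the IL-10 signalling genes. *Tgfbi* parted from *Fn1*, the fibronectin gene, which was lower (4511 against 11537 CPM, -1.35), while *Bhlhe40* (1.04) was higher. *Ltbp1* (-2.79) and *Thbs1* (-1.26) were lower and *Itgav* (1.24) and *Ltbp3* higher. None of the 10 receptors, 6 SMADs or 9 corepressors tested was called.

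For T/NK cells, macrophages had 8 of 16 IL-10 signalling genes higher and 2 lower, beside 17.3% and 14.3% of all features, and *Smad7* and *Smad3* (-1.05) were the 2 SMADs lower. On the other scale, where the median of all features was -0.68, these were 4 higher and 3 lower of the 16, and *Il10ra* and *Il10rb* were no longer called. Of 9 TGF-β ligand and latency genes 7 were higher, with 8 of 10 tested on the other scale, and of 9 corepressors none was called. B cells over T/NK cells had 4 of 16 IL-10 signalling genes lower and none higher, beside 5.8% and 6.8% of all features, with *Dusp1* (-2.40) and *Socs3* among them. *Smad7* and *Smad4* were the SMADs called there, both lower in B cells.

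The genes most like a member were ranked by Pearson's r of log2 levels over 30 points, the 5 split classes in each of 6 libraries, among 9646 features. The points share libraries and cells, so the values describe these data only. For *Il10* they were *Hpgds* (r = 0.907), *Nfatc1* (0.902) and *Gm18342* (0.871). For *Tgfbi* they were *Cebpa* (0.952), *Rab7b* (0.944) and *Sdc3* (0.933), for *Tgfb1* *Csf2ra* (0.921), *Csrnp1* (0.918) and *Spi1* (0.909), and for *Socs3* *Gpr146* (0.849), *Rhog* (0.844) and *Rgs10* (0.818). Among members themselves, *Il10* had its highest r with *Skil* (0.693) and its lowest with *Socs3* (-0.680), and *Tgfbi* with *Il10rb* (0.785) and *Tgfbr2* (-0.762).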

How the data were processed

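Single-cell RNA-seq was made from 6 libraries with a droplet kit that reads the start of transcripts. The authors aligned reads to mouse and human genomes together (hg38 and mm10) and deposited unnormalized UMI counts per gene and cell in 1 table. The submitters' processing notes name Cell Ranger 2.2 and Seurat 3.0. The annotation used is not given in the sources used here.

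Of 7760 barcodes, 7665 were kept, by minimums of 500 genes and of 0.8 for the ratio of log genes to log UMIs, and a mitochondrial share of 10% or less. Counts were summed per class and library and scaled to 1000000 UMIs of the class (CPM). Levels have exact Poisson, shares exact binomial and ratios exact conditional 95% intervals, which cover counting error only. To compare shares, each cell was thinned to 1500 UMIs, which left out 38 B cells, 16 T/NK cells and 83 macrophages. Scrublet marked 47 barcodes (0.606%) as doublets, which were kept in the values given. No p-value was computed, and library numbers were not matched to samples. A gene was called at 2-fold or more with an interval that excluded 1 and the same direction in 6 libraries, over features with a mean of 5 CPM, gate genes left out. The step was tested on simulated counts with Poisson error only, at the same rate per gene in each library. That setting has no spread between cells or libraries, so it does not cover uneven genes such as *Il10*.

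The 10 genes, the gates and the lists were chosen with earlier results of these data known. All 10 genes are described, list genes are named by the largest called ratios, and core signalling genes by role; some list genes are not reported here. Alternatives were other cell filters, scales, low-value filters, splits and leaving out each library. The range of 5000 to 10000 UMIs and the split of T/NK cells by *Nkg7* were chosen after seeing the data. Python 3.11.15, numpy 2.4.6, scipy 1.17.1, pandas 2.3.3, scanpy 1.11.5 and matplotlib 3.10.9 were used.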

Additional observations from a re-analysis of the deposited data

Results flagged for a closer look

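Cells that passed none of the gates were used in no comparison, and 2 genes had a pooled level there above that of the highest of the 3 classes. *Il10* had 91.5 CPM (82.7 to 101) in these 1277 cells against 68.2 CPM (64.5 to 72.1) in B cells. *Skil* had 76.1 CPM (68.1 to 84.9) against 73.3 CPM (69.4 to 77.3) in B cells, and these intervals overlap. The order did not hold within libraries. In library numbers 1 to 6 cells of no gate had 56.4, 49.3, 43.9, 33.7, 85.7 and 175 CPM of *Il10*, above the B cells of the same library only in number 1, and they were above them for *Skil* also only in number 1. Library number 6 gave 514 of the 1277 cells and 226 of their 393 *Il10* UMIs. Without it, *Il10* was at 55.7 CPM (47.6 to 64.8) in cells of no gate and 58.2 CPM (54.7 to 61.9) in B cells, and *Skil* at 70.4 and 70.2 CPM. Leaving out a library was chosen here after the data were seen.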

How the results depend on the processing

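The number of the 10 genes called stayed within 1.5 times its value in 83 of 87 recomputations, and no log2 ratio that was called changed sign. It went from 3 to 5 in B cells over T/NK cells when lymphocytes with macrophage gate UMIs were left out (adding *Il10ra* at 1.39 and *Tgfb1* at 1.59). It went from 5 to 3 in macrophages over B cells without immunoglobulin, ribosomal protein and mitochondrial genes in the scale. In cells of 5000 to 10000 UMIs it went from 3 to 1 in Egr-high over Egr-0 B cells and from 2 to 0 in Irf4 over Gata6 macrophages, where *Socs3* was -1.26 and 2 of 6 libraries went the other way. Classes there held fewer cells. Leaving out 1 library number gave 5 to 6 calls in macrophages over B cells, 4 to 7 over T/NK cells, 3 in B cells over T/NK cells, 2 to 3 in the EGR split and 2 in the macrophage split. Without number 3 the calls of *Il10ra* and *Il10rb* over T/NK cells were lost, and without number 4 that of *Il10rb*. Without number 5 *Tgfb1* was called over B cells. Across all alternatives run for them, *Il10*, *Tgfbi* and *Tgfbr2* kept their calls in macrophages over B cells, *Tgfb1*, *Tgfbi* and *Tgfbr2* in macrophages over T/NK cells, and *Il10*, *Smad7* and *Socs3* in B cells over T/NK cells. Other causes of these changes were not tested. No paired test was run, since no result comes from a test. Library numbers are not tied to samples, so genotypes or times could not be paired. The classes were compared within the same 6 libraries, and a call asks for the same direction in each. The T/NK values rest on few UMIs, with 10 of *Il10* and 13 of *Tgfbi*.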

Other observations

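The *Il10* of cells outside the gates lay mostly with B cell transcripts. Cells with 1 or 2 UMIs of *Cd79a* and *Cd79b*, under the B cell gate, had 123 CPM (106 to 141) in 410 cells, those with 3 had 79.1 CPM (64.6 to 95.9) in 287 cells, and those with none had 65.6 CPM (52.7 to 80.7) in 580 cells. An *Il10* UMI was seen in 20.7%, 19.9% and 4.66% of them. These values are pooled, library number 6 gave 514 of the 1277 cells of no gate, and the order of the groups was not examined by library. The 7 B cell markers summed to 1411 CPM over all cells of no gate. *Tgfbi* in the same groups of cells was 1.22, 13.1 and 113 CPM.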
